A study of Homo sapiens with 9 samples.

Results

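Deoxynucleotide synthesis was followed through 9 genes, TYMS, RRM1, RRM2, TK1, DUT, DTYMK, DCK, SAMHD1 and UPP1, which were chosen by name for their part in making or clearing deoxynucleotides and thymidylate, and which make up 9 of the 58735 genes in the deposited table. They were measured by RNA-seq in KHM-5M, an established human thyroid cancer cell line, after 24 h in the solvent DMSO alone or in YK-4-279 at a low dose of 0.3 μM or a high dose of 1 μM. YK-4-279 is a small molecule developed as an inhibitor of ETS family transcription factors. Each of the 3 groups held 3 samples of this 1 line, and each sample gave between 16903251 and 18238884 gene counts. The labels do not say that the samples of a group came from separate cultures, and the study's methods give fewer biological replicates than the labels, so p-values measure the spread between these samples, which may be partly technical.

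Cells need deoxynucleotides to copy DNA. Ribonucleotide reductase, built from a large subunit (RRM1) and a small subunit (RRM2, or RRM2B outside S phase and after DNA damage), removes the oxygen from the sugar of ribonucleotides. Thymidylate is then made from dUMP by thymidylate synthase (TYMS) with a folate cofactor, while DUT supplies dUMP and keeps dUTP out of DNA. DTYMK adds the next phosphate to thymidylate. The salvage kinases TK1 and DCK phosphorylate thymidine and deoxycytidine taken up or recycled by the cell, SAMHD1 breaks down deoxynucleotide triphosphates, and UPP1 cleaves uridine. Several of these genes are known as S phase genes that E2F factors drive, and the upstream sequences below show which of the words bound by E2F, ETS and other factors stand before the start of each.

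In the 250 bases before the RefSeq start of each gene (RefSeq tables, GRCh38.p14, all 9 genes matched), 4 kinds of word were searched on both strands. The E2F words were TTTGGCGC, TTTCCCGC, TTTGCCGC, TTTCGCGC and GGCGGGAA, the ETS words CCGGAAGT and ACCGGAAG, the NF-Y word CCAAT and the CHR words, bound at genes of the later cell cycle, TTTGAA and TTCGAA. The ETS pair overlaps in CCGGAAG. The stretches that hold the matches are shown 5′ to 3′ on the strand of the gene, with every searched word in capitals, because they show how the genes that fell differ in these words, and that the CCAAT of RRM1, RRM2 and DTYMK also stands before SAMHD1, which was not called.
TYMS: cgcgggacggccGCGGGAAAaggcgcgcgg
RRM1: ggcatgtccatatCCAATggggcccatggg
RRM2: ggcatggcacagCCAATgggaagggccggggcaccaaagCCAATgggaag
DTYMK: ggccccggCCAATcccTTCGAAtttggccg
SAMHD1: gcaggaggCCAATaggctgCCAATactcct
These stretches lie at chr18:657602-657631 (plus strand) for TYMS, chr11:4094644-4094673 (plus strand) for RRM1, chr2:10122634-10122683 (plus strand) for RRM2, chr2:241686886-241686915 (minus strand) for DTYMK and chr20:36951736-36951765 (minus strand) for SAMHD1. An E2F word was found before 2 of the 9 genes, against 4.76% of 35116 promoters. TYMS holds TTTCCCGC on the opposite strand, 39 to 32 bases before its start. RRM1 holds GGCGGGAA, also on the opposite strand, 223 to 216 bases before its start, outside the stretch shown. CCAAT stood before 4 of the 9 genes, RRM1, RRM2, DTYMK and SAMHD1, against 32% of promoters. RRM2 carries it 3 times, at 123 to 119, 93 to 89 and 66 to 62 bases before the start, of which the later pair is shown. A CHR word was found before RRM1 and DTYMK, 2 of 9 against 14.3% of promoters, and in DTYMK it follows a CCAAT within the same stretch. In RRM1 the CHR word TTTGAA lies on the opposite strand, 199 to 194 bases before the start, outside the stretch shown. Neither ETS word was found before any of the 9 genes, against 4.3% of promoters, which says only that these letters are not in these windows. TK1, DUT, DCK and UPP1 held none of the words searched. For the genes whose stretches are shown, the starts used here differ from those of the authors' gene table. The difference is largest for RRM2, whose annotated gene begins 2041 bases further upstream. The starts of TK1, DUT, DCK and UPP1 were not compared.

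In DMSO the 9 genes spanned a wide range of FPKM, a level per gene length and library size. TK1 had the highest mean, 95.2 ± 6.67 FPKM (SD, n = 3), followed by RRM1 at 77.0 ± 4.17, DTYMK at 58.3 ± 5.12, TYMS at 36.2 ± 2.18, DUT at 27.6 ± 0.873, RRM2 at 22.3 ± 0.718, DCK at 14.5 ± 1.67, UPP1 at 8.65 ± 1.12 and SAMHD1 at 5.19 ± 0.199 FPKM. No neighbours in this order overlapped between samples in DMSO or at 1 μM. At 0.3 μM the ranges of DUT and RRM2 overlapped and those of the other neighbours did not. The order of the 9 means was the same in the 3 groups.

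At 1 μM of YK-4-279, DUT, TYMS, RRM2, TK1, RRM1 and DTYMK, 6 of the 9 genes, fell against DMSO, and none of them fell by as much as 1.5-fold. Their decreases ran from 15.2% for DTYMK to 25.7% for DUT, and in each of the 6 genes every 1 μM sample lay below every DMSO sample. DCK, SAMHD1 and UPP1 did not pass the test. Of 15617 genes tested, 9.95% were called lower and 7.67% higher at an adjusted p under 0.05 (edgeR quasi-likelihood test, Benjamini-Hochberg), and 16.9% had FPKM ranges that did not overlap and were lower. The median log2 fold change was -0.24 over the 9 genes and -0.01 over all genes tested. With the genes tested split by length into 4 bins of equal size, TYMS, TK1 and DTYMK lay in the bin of shortest genes, whose median was -0.06, against -0.01 to 0.02 in the other bins. In bulk samples like these, fewer cells in S phase and less of these RNAs per cell cannot be told apart.

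**Figure D1:**
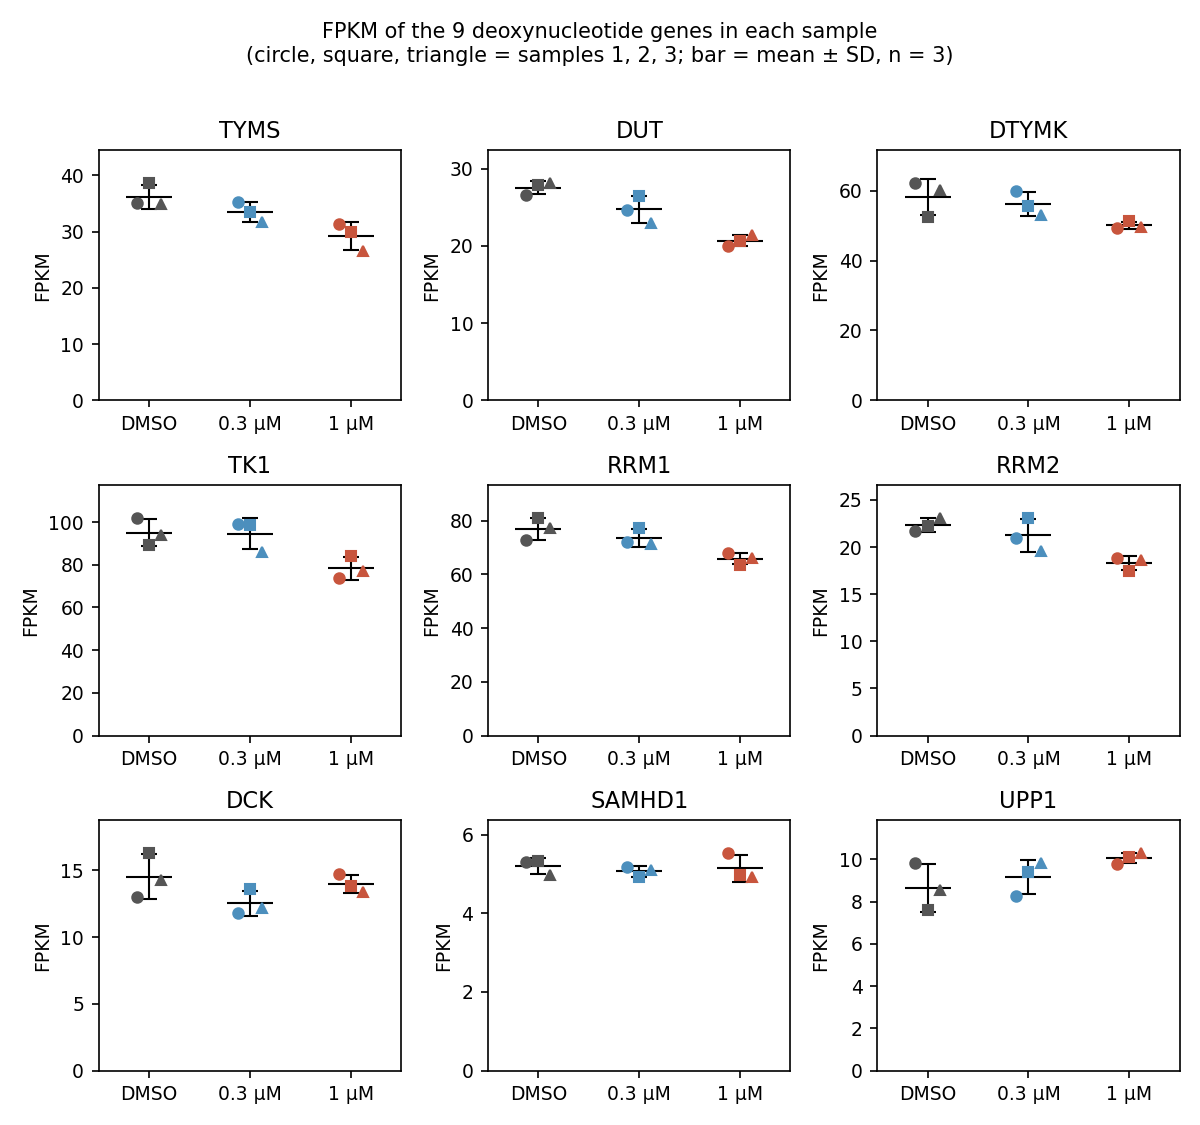
FPKM (y axis, from 0) of each of the 9 genes in the DMSO, 0.3 μM and 1 μM samples (x axis); circles, squares and triangles are samples 1, 2 and 3, and bars give the mean ± SD of 3 samples. In TYMS, DUT, DTYMK, TK1, RRM1 and RRM2 all 1 μM points lie below all DMSO points, while DCK, SAMHD1 and UPP1 overlap.

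DUT, TYMS and DTYMK act in sequence to supply dUMP, turn it into thymidylate and phosphorylate that product, and all 3 genes fell. DUT (ENSG00000128951, chr15:48331011-48343373), which hydrolyses dUTP, stood at 26.6, 27.9 and 28.2 FPKM in DMSO, at 24.7, 26.5 and 23.0 at 0.3 μM and at 20.0, 20.7 and 21.4 FPKM at 1 μM. The 3 groups did not overlap, although the highest 0.3 μM sample, at 26.5 FPKM, lay just below the lowest DMSO sample, at 26.6 FPKM. Its log2 fold change at 1 μM was -0.43 (SE 0.06, adjusted p = 0.000323, edgeR), the largest decrease among the 9 genes, and it held with every single library left out (adjusted p at most 0.00405). Its pseudogenes DUTP2 and DUTP6 took at most 20 and 16 counts a sample. TYMS (ENSG00000176890, chr18:657604-673578) stood at 35.1, 38.7 and 34.9 FPKM in DMSO, 35.2, 33.5 and 31.8 at 0.3 μM and 31.3, 29.9 and 26.5 at 1 μM. The 1 μM samples were the lowest of the 9. At 1 μM its log2 fold change was -0.33 (SE 0.07, adjusted p = 0.00738, edgeR), a decrease that missed the threshold without 1 μM sample 3 (adjusted p = 0.0523).

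ENOSF1, a gene on the opposite strand, overlaps TYMS over 3255 bases and fell with it (log2 fold change -0.55, SE 0.09, adjusted p = 0.00109, edgeR), with 258 to 425 counts a sample. The strand setting of the counting is not given in the sources used here, so reads in the overlap cannot be assigned to one of the pair with certainty. DTYMK (ENSG00000168393, chr2:241675742-241686991) measured 62.3, 52.5 and 60.1 FPKM in DMSO, 59.9, 55.6 and 53 at 0.3 μM and 49.2, 51.3 and 49.7 FPKM at 1 μM. DMSO sample 2 lay closest to the 1 μM samples. The decrease at 1 μM, -0.24 on the log2 scale (SE 0.07, adjusted p = 0.0260, edgeR), was the least stable of the 6, and was lost without DMSO sample 1, DMSO sample 3 or any single 1 μM sample, with adjusted p up to 0.110.

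Thymidine kinase TK1 (ENSG00000167900, chr17:78174075-78187233), the salvage route to thymidylate, stood at 102, 89.3 and 93.8 FPKM in DMSO, 99.1, 98.6 and 86.1 at 0.3 μM and 73.9, 84.2 and 76.9 at 1 μM. The 1 μM samples were the lowest of the 9, and the DMSO and 0.3 μM samples were intermixed. TK1 fell at 1 μM by 18.6%, a log2 fold change of -0.30 (SE 0.07, adjusted p = 0.00890, edgeR), and came closest to the threshold without 1 μM sample 1 (adjusted p = 0.0499). DCK (ENSG00000156136, chr4:70992538-71030914), the kinase for deoxycytidine, measured 13.0, 16.3 and 14.3 FPKM in DMSO, 11.8, 13.6 and 12.2 at 0.3 μM and 14.7, 13.8 and 13.4 at 1 μM. Its 1 μM samples lay inside the range of the DMSO samples, and the log2 fold change was -0.07 with a 95% interval from -0.25 to 0.11 (adjusted p = 0.595, edgeR). The decreases estimated for DUT, TYMS, RRM2 and TK1 lie outside this interval. Those estimated for RRM1 and DTYMK, both -0.24, lie inside it. These estimates have errors of their own. The 95% intervals of TYMS, RRM2, TK1, RRM1 and DTYMK overlap that of DCK, and only that of DUT, -0.56 to -0.30, does not. Whether DCK differs from the other genes was not tested. DCK overlaps MOB1B on the same strand over 29912 bases in the gene table, and MOB1B had 915 to 1147 counts a sample against 682 to 953 for DCK.

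Both subunits of ribonucleotide reductase fell. RRM1 (ENSG00000167325, chr11:4094707-4138876) stood at 72.7, 81.0 and 77.1 FPKM in DMSO, 71.9, 77.2 and 71.4 at 0.3 μM and 67.8, 63.6 and 66.0 at 1 μM. RRM2 (ENSG00000171848, chr2:10120698-10131419) stood at 21.7, 22.2 and 23.1 FPKM in DMSO, 21.0, 23.1 and 19.6 at 0.3 μM and 18.8, 17.5 and 18.6 at 1 μM. In both genes the 1 μM samples lay below all the other samples. The log2 fold change at 1 μM was -0.24 for RRM1 (SE 0.06, adjusted p = 0.00938, edgeR) and -0.30 for RRM2 (SE 0.06, adjusted p = 0.00286). RRM2 kept its call with any library left out (adjusted p at most 0.0251), and RRM1 missed the threshold without 1 μM sample 2 (adjusted p = 0.0506). AC007240.1, which overlaps RRM2 on the same strand over 8681 bases, had only 29 to 70 counts a sample.

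The balance of the subunits within a library does not depend on the scaling between libraries. The log2 ratio of RRM2 to RRM1 counts was -1.43 ± 0.07 in DMSO, -1.44 ± 0.06 at 0.3 μM and -1.50 ± 0.02 at 1 μM (SD, n = 3), and the groups overlapped (1 μM against DMSO, two-sided exact permutation p = 0.4, 0.6 after Benjamini-Hochberg adjustment over 6 ratio tests). RRM2B, the alternative small subunit and a p53 target, measured 10.5, 11.3 and 11.0 FPKM in DMSO, 9.63, 11.1 and 9.69 at 0.3 μM and 12.3, 12.2 and 12.2 at 1 μM. Its 1 μM samples were the highest of the 9, where those of RRM2 were the lowest. Against 0.3 μM it was higher by 0.27 on the log2 scale (SE 0.07, adjusted p = 0.0230, edgeR), a call lost without 0.3 μM sample 1 or any single 1 μM sample (adjusted p up to 0.0823). Against DMSO its log2 difference was 0.14 (SE 0.06, adjusted p = 0.132).

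The log2 ratio of RRM2 to RRM2B was 0.97 ± 0.05 in DMSO, 1.01 ± 0.06 at 0.3 μM and 0.52 ± 0.05 at 1 μM (SD, n = 3). All 3 of the 1 μM libraries, at 0.56, 0.46 and 0.55, lay below the 6 others, which ran from 0.91 to 1.07. The difference between 1 μM and DMSO was -0.45 and that between 1 μM and 0.3 μM was -0.49, each with an exact permutation p = 0.1, the smallest that 3 samples against 3 can give, and 0.3 after adjustment over the 6 ratio tests. The permutation test therefore could not reach 0.05 with 3 samples a group.

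**Figure D2:**
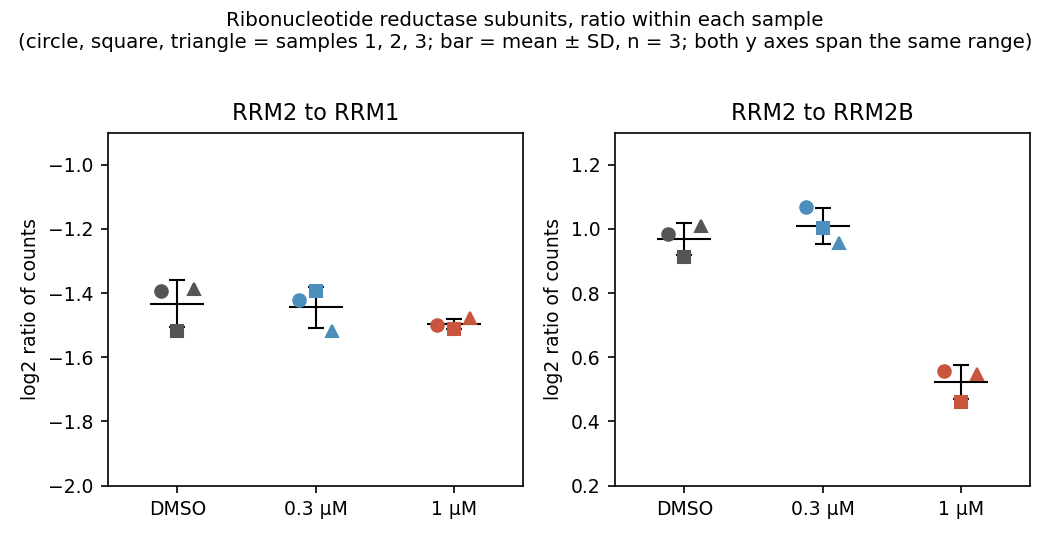
Log2 ratio of counts (y axes, which span the same range) of RRM2 to RRM1 and of RRM2 to RRM2B in each DMSO, 0.3 μM and 1 μM sample (x axis); points are samples and bars give the mean ± SD of 3. The RRM2 to RRM1 ratios of the 3 groups overlap, while the 1 μM samples stand apart in RRM2 to RRM2B, with a mean of 0.52 against 0.97 in DMSO.

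SAMHD1 and UPP1, which break down deoxynucleotide triphosphates and uridine, did not pass the test. SAMHD1 (ENSG00000101347, chr20:36889773-36951901), the triphosphohydrolase, measured 5.29, 5.33 and 4.97 FPKM in DMSO, 5.18, 4.92 and 5.09 at 0.3 μM and 5.53, 4.96 and 4.92 at 1 μM. All 3 groups overlapped, and the log2 fold change at 1 μM was -0.03 with a 95% interval from -0.18 to 0.12 (adjusted p = 0.792, edgeR). UPP1 (ENSG00000183696, chr7:48088628-48108733), uridine phosphorylase, measured 9.83, 7.59 and 8.54 FPKM in DMSO, 8.28, 9.40 and 9.81 at 0.3 μM and 9.80, 10.1 and 10.3 at 1 μM. UPP1 was the one gene of the 9 with a higher mean at 0.3 μM and a higher one again at 1 μM, but DMSO sample 1 lay among the 1 μM samples. Its log2 fold change at 1 μM was 0.20 with a 95% interval from 0.01 to 0.39 (adjusted p = 0.140, edgeR), which passed, among the fits with 1 library left out, only without DMSO sample 1 (0.31, adjusted p = 0.0229).

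At 0.3 μM none of the 9 genes passed edgeR's adjusted threshold, in either direction. None of 15762 genes tested passed it either, so 0% were called lower and 0% higher, with 594 genes at an unadjusted p under 0.05 and 1 gene called by DESeq2. DESeq2 called none of the 9. DUT (-0.16, SE 0.07) and DCK (-0.21, SE 0.10) reached an unadjusted p under 0.05 in edgeR, at 0.0493 and 0.0378, both lower, where 2.13% of all genes did so. DUT was also the 1 gene of the 9 whose 0.3 μM samples all lay below DMSO, against 4.45% of all genes. The median log2 fold change was -0.07 over the 9 genes. DMSO sample 2 and 0.3 μM sample 3 stood furthest from their groups, and the count among the 9 was also 0 with both left out.

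**Figure D3:**
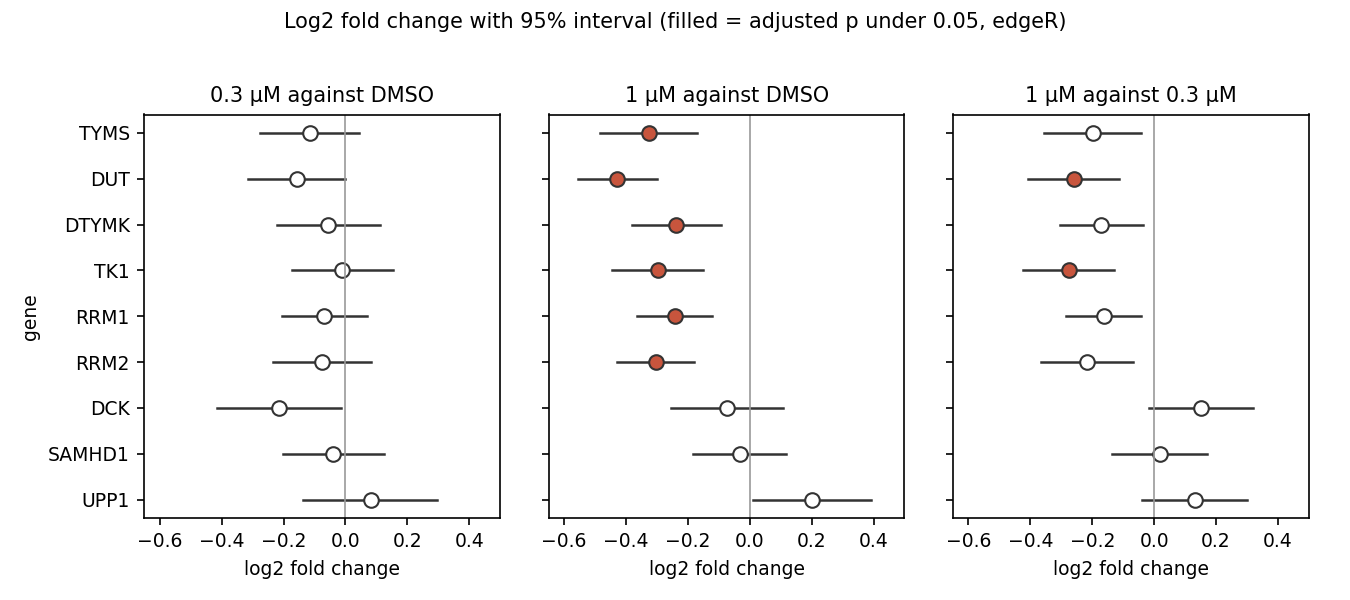
Log2 fold change (x axis) with its 95% interval for each of the 9 genes (y axis) in 3 panels, each dose set against DMSO and then the high against the low dose; filled points have an adjusted p under 0.05 (edgeR). No point is filled at 0.3 μM, 6 are filled at 1 μM against DMSO and 2, DUT and TK1, at 1 μM against 0.3 μM.

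Between the doses, DUT and TK1 fell from 0.3 μM to 1 μM, with log2 fold changes of -0.26 (SE 0.07, adjusted p = 0.0220, edgeR) and -0.28 (SE 0.07, adjusted p = 0.0160). Of 15583 genes tested, 6.75% were called lower and 5.85% higher. In 6 of the 9 genes, the 6 named at 1 μM against DMSO, every 1 μM sample lay below every 0.3 μM sample, where 15.1% of all genes did so. RRM2 (-0.22, adjusted p = 0.0508, edgeR) just missed the threshold, and TYMS, RRM1 and DTYMK had log2 fold changes of -0.20, -0.16 and -0.17 with adjusted p between 0.0734 and 0.0904. The count of 2 depended on single libraries. It was 6 without 0.3 μM sample 3, 1 without 0.3 μM sample 1 (DUT) or without 1 μM sample 2 (TK1), and 0 without 0.3 μM sample 2, 1 μM sample 1 or 1 μM sample 3. Any pair of the 3 comparisons shares the samples of 1 group, so their values are not independent of each other.

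Across the 9 samples, Pearson correlations of log2 CPM between the 6 genes that fell ran from 0.463 to 0.945. The highest was that of DUT with RRM2, and RRM2 with RRM1 reached 0.930. TK1 correlated at 0.903 with DTYMK, 0.794 with DUT, 0.745 with RRM2, 0.666 with TYMS and 0.583 with RRM1. UPP1 correlated negatively with all the others, from a weak -0.167 with SAMHD1 to -0.823 with TYMS. These values describe 9 samples that share their dose groups and library scaling. Among 9684 other genes with a mean of at least 10 CPM, those most like RRM2 were DGLUCY (0.982), TUBGCP3 (0.977) and DPY19L2 (0.973), and those most like TYMS were UQCC1 (0.975), POLD3 (0.964) and CCDC77 (0.957).

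Of 71 other genes of the nucleotide pathway tested, 7 fell and 3 rose at 1 μM against DMSO (edgeR, adjusted p under 0.05), with a median log2 fold change of -0.02. Over all genes tested, 9.95% fell and 7.67% rose, so neither count of the 71 exceeded the share of all genes. The 7 became 2 without 1 μM sample 2 and 3 without 1 μM sample 3, and 5 or 6 without any other single sample. The folate cycle list held 4 of the 7 among its 9 genes tested, with a median of -0.19. Its 9 include TYMSOS, a noncoding RNA beside TYMS that was not called, and without it the median of the other 8 was -0.16. Among them were SHMT1 (-0.32, SE 0.07, adjusted p = 0.00689), MTHFD2 (-0.25, SE 0.07, adjusted p = 0.0254) and MTHFD1 (-0.19, SE 0.06, adjusted p = 0.0355), enzymes that load one-carbon units onto folate or convert them there.

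SHMT1 stood at 13.2, 15.2 and 15.1 FPKM in DMSO, 13.6, 14.1 and 13.9 at 0.3 μM and 11.2, 11.4 and 12.6 at 1 μM. Its 1 μM samples were the lowest of the 9, and it kept its call with each library left out. MTHFD2 lost it without DMSO sample 2 or 3 or 1 μM sample 2 or 3, and MTHFD1 without any one of DMSO samples 2 and 3 and the 3 samples at 1 μM.

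In the other lists single genes were called. Among 15 other genes of deoxynucleotide synthesis CMPK1, which phosphorylates UMP and CMP, rose (0.19, SE 0.06, adjusted p = 0.0357, edgeR). Among 18 clearing enzymes NT5C, a nucleotidase for deoxynucleotides, fell (-0.33, SE 0.10, adjusted p = 0.0297), and NT5E, the ecto-nucleotidase CD73, rose (0.27, SE 0.05, adjusted p = 0.00344). None of the 7 genes of pyrimidine ribonucleotide synthesis tested was called by edgeR or DESeq2, 2 had an unadjusted p under 0.05 in edgeR, and all had log2 fold changes from -0.13 to 0.28. In purine synthesis ADSSL1, an adenylosuccinate synthase, fell from 1.73, 1.80 and 2.25 FPKM in DMSO to 1.08, 1.05 and 0.716 FPKM at 1 μM (-1.03, SE 0.17, adjusted p = 0.000922), 1 of 16 tested. Of 6 nucleoside carriers SLC29A2 fell (-0.46, SE 0.13, adjusted p = 0.0234) and SLC25A33, a mitochondrial pyrimidine nucleotide carrier, rose (0.61, SE 0.13, adjusted p = 0.00694). CMPK1, NT5C and SLC29A2 each lost the call without some single libraries, with adjusted p up to 0.130, 0.131 and 0.0982.

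**Figure D4:**
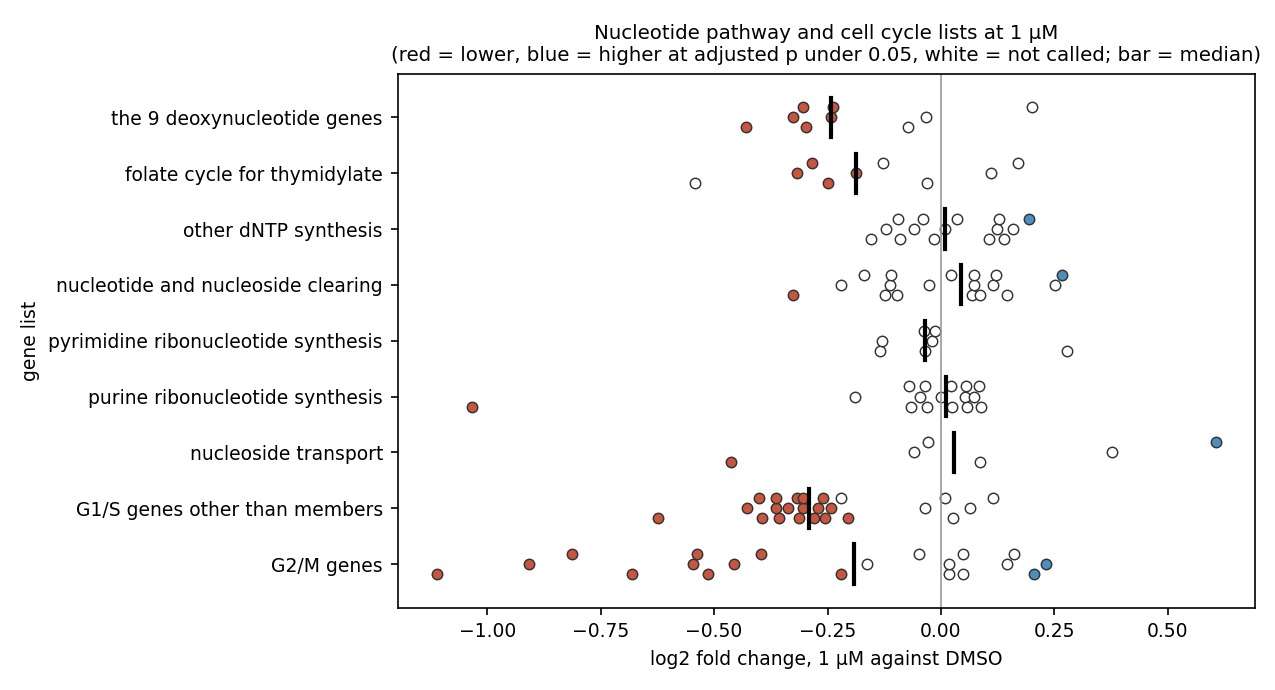
Log2 fold change at 1 μM against DMSO (x axis) of every tested gene in the 9 deoxynucleotide genes and 8 other lists (y axis); red points were called lower and blue points higher at an adjusted p under 0.05 (edgeR), white points were not called, and black bars are medians. The median is -0.24 for the 9 genes, -0.19 for the folate cycle list (TYMSOS included) and -0.29 for the G1/S genes, and lies between -0.04 and 0.05 for the other nucleotide lists.

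Cell cycle genes moved alongside. Of 24 other G1/S genes tested, 18 fell and none rose at 1 μM, with a median log2 fold change of -0.29, close to the -0.24 of the 9 genes. The shares over all genes tested were 9.95% lower and 7.67% higher. The lowest p-values belonged to CDC45 (-0.62, adjusted p = 6.7e-05), MCM5 (-0.34, adjusted p = 0.000922), CDT1 (-0.43, adjusted p = 0.00169) and MCM4 (-0.30, adjusted p = 0.00169; edgeR), which load or form the replicative helicase. Without 1 μM sample 3 the 18 became 9, and it lay between 14 and 16 without any other sample. Of 20 G2/M genes 10 fell, CDK1, AURKB, TOP2A and UBE2C with the lowest p-values, and 2 rose, AURKA and CCNB1, and 6 fell without 1 μM sample 1 or 1 μM sample 3. CCNB1 lost its call without DMSO sample 1 or 3 or 1 μM sample 2 or 3 (adjusted p up to 0.0893, edgeR). AURKA kept its call with each library left out (adjusted p at most 0.0499). The part of cell cycle position in the values of the 9 genes was not tested.

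Among 14 p53 targets 3 rose and 1 fell at 1 μM against DMSO, where 7.67% of all genes tested rose and 9.95% fell. CDKN1A, the cell cycle inhibitor p21, rose from 7.92 to 7.95 FPKM in DMSO to 12.3 to 13.0 FPKM at 1 μM (0.65, SE 0.08, adjusted p = 7.8e-05, edgeR), AEN and ZMAT3 also rose, and GADD45A fell. AEN kept its call with each library left out, ZMAT3 lost it without DMSO sample 2 or 3 or 1 μM sample 2 or 3 (adjusted p up to 0.189), and GADD45A without 1 μM sample 1 or 3 (adjusted p up to 0.109, and up to 0.254 over all the alternatives). As a check of the cell type, PAX8, KRT8 and KRT18 were present in all samples (PAX8 at 21.6 to 27.7 FPKM), whereas TG, TSHR, SLC5A5 and NKX2-1 were at or near 0. Of the 12 thyroid and epithelial markers, 6 passed the filter on low counts. The summed level of the 12 ran from 1920 to 1930 CPM in DMSO, 1850 to 2030 at 0.3 μM and 1910 to 2020 at 1 μM. That of 12 markers of other cell types ran from 445 to 625 CPM in DMSO, 394 to 572 at 0.3 μM and 391 to 447 at 1 μM. COL1A1 alone made up most of this sum, at 386 to 558, 321 to 505 and 338 to 395 CPM, and PTPRC, PECAM1, CDH5, CD3E, LYZ and DCN had at most 8 counts in any sample. LUM, at 142 to 238 counts a sample, and VWF, at 36 to 77, were present in all samples. Of the 5 tested among the latter, PDGFRB and COL1A1 fell and CD14, at 8 to 37 counts a sample, rose, while PTPRC was at 0 in all DMSO and 0.3 μM samples. PDGFRB kept its call with each library left out, COL1A1 lost it without 1 μM sample 1 (adjusted p = 0.0584), CD14 lost it without any single library but DMSO sample 1 (adjusted p up to 0.130), and DESeq2 called 1 of the 5. Their part in the results was not tested.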

How the data were processed

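RNA-seq counts of 9 KHM-5M samples, 3 for each of 3 groups, were analysed. Per the study's methods, the authors used Hisat2 for alignment to GRCh38 and HTSeq for counting, while the submitters' processing notes name HISAT2 2.0.5, featureCounts 1.5.0-p3 and DESeq2 1.20.0. The deposited counts are whole, unnormalized reads per gene. The deposited FPKM values divide them by gene length and by library totals that the authors had scaled, within 0.992 to 1.024 of the total counts. The authors' fold changes and p-values were not used, and 0 sample columns were left unmapped.

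Genes were kept by filterByExpr (minimum count of 10), scaled by TMM and tested with glmQLFTest in edgeR 4.0.16 (R 4.3.3) on the 6 samples compared, and p-values were adjusted by Benjamini-Hochberg over all genes tested. The test was checked on simulated counts. Ratios were compared by two-sided exact permutation tests (scipy 1.17.1). Alternatives were DESeq2 1.42.0, RLE factors, a minimum count of 1, all 9 samples in 1 fit, the replicate number as a block, single samples left out, an unadjusted p and the study's 1.5-fold cutoff for protein-coding genes.

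The 9 genes and the lists were chosen with earlier results of these data known. Named were all 9 genes, RRM2B and CDKN1A, up to 4 genes per list and direction with the lowest p at 1 μM, the 3 genes most like TYMS and RRM2, and marker or overlapping genes that bear on a value. Some genes of the lists that the rule names are not reported here. Each sample's depth of 16903251 to 18238884 counts allows 0.164 to 0.177 CPM for a count of 0 (3 counts), which covers counting error only.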

Additional observations from a re-analysis of the deposited data

How the results depend on the processing

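The count of 6 genes lower at 1 μM against DMSO was 6 with DESeq2, RLE factors, a minimum count of 1 and all 9 samples in 1 fit, between 4 and 6 with single samples left out, and 0 with the 1.5-fold cutoff for protein-coding genes. At 0.3 μM against DMSO the count of 0 became 2 with an unadjusted p, and stayed 0 with each other setting tried. At 1 μM against 0.3 μM the count of 2 was 3 with DESeq2, RLE factors or all 9 samples (RRM2 added), 6 with an unadjusted p, 0 with the 1.5-fold cutoff, and ran from 0 to 6 with single samples left out. With the replicate number as a block the 3 counts were 0, 5 (DTYMK lost, adjusted p = 0.0609, edgeR) and 2, and the subunit ratios did not change. The deviations of same-numbered samples from their group means correlated at -0.06 to 0.13, and 4 of 9 pairs correlated best with their own number, so the numbers were not taken to pair the samples. With 3 samples a group the calls of DTYMK, RRM1 and TYMS at 1 μM against DMSO turned on single libraries. The alternative without DMSO sample 2 and 0.3 μM sample 3, and the alternatives for the other lists, were added after the data had been seen. No result changed its direction while past the threshold.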
